A study of Mus musculus with 44 samples.

Results

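Acetylation of lysine 27 on histone H3 (H3K27ac) was compared in nuclei of the nucleus accumbens of Polg(D181A) mutant mice and wild-type (WT) mice. All 4 accumbens H3K27ac libraries were used, 2 mutant and 2 WT, of the 44 libraries of the series, and every one of the 132740 accumbens peaks was kept. The mice were adult and, like their controls, of strain C57BL/6. The labels give no sex, and they do not say whether libraries of a genotype came from separate animals or pools, and p-values therefore describe only how far these libraries scatter, which may be technical. Frozen tissue gave nuclei that were stained for NeuN, a neuronal nuclear protein, and sorted by flow cytometry before chromatin immunoprecipitation. The series as a whole concerns a mouse model of bipolar disorder, and the comparison asks whether the acetylation landscape of accumbens neurons differs in the mutant.

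H3K27ac marks active promoters and enhancers, and its level at a gene start broadly follows transcription. The nucleus accumbens is the ventral part of the striatum, and most of its neurons are GABAergic projection neurons that carry D1 or D2 dopamine receptors and relay reward and motivation signals. Polg encodes the catalytic subunit of the polymerase that copies mitochondrial DNA, and D181A removes its proofreading activity. In the line known under this allele the mutant Polg is an added transgene driven by a Camk2a promoter, which is active in forebrain neurons, while the native Polg gene is kept. The labels do not describe the construct.

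Library WT 2 stood apart from the others. It had no read in 69.6% of the peaks, against 25.2% and 23.3% in mutant libraries 1 and 2 and 19.9% in WT 1, and without it no peak was called. Of 105058 peaks tested, 5 passed an adjusted p under 0.05 in the edgeR quasi-likelihood test with Benjamini-Hochberg adjustment (0.00476% called). 1 was higher in mutant libraries and 4 were lower. With DESeq2 size factors in the same test 1 was higher and 342 were lower, and with total counts only 1 was higher and 79 were lower. The count was 13 without mutant library 1, 201 without mutant library 2 and 0 without WT 1. The higher one of the 5 is the broad domain over the start of Camk2a, the alpha subunit of the calcium/calmodulin-dependent kinase of forebrain synapses. The lower ones lie at the start sites of Kcmf1, of Zrsr1 together with an annotated start of Commd1, and of Secisbp2, and within the span of Cul2. Over the 28365 peaks with a count above 0 in all 4 libraries none was called (0%), although 961 had an unadjusted p under 0.05, and the smallest adjusted p was 0.844.

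The promoters at the 3 start-site peaks that were lower are shown first, because 3 of the 4 lower calls are peaks that overlap them. Each run is the 300 bases from 250 before to 50 after the annotated start, taken from RefSeq on GRCm38.p6 (mm10), 5′ to 3′ on the gene's strand. Capitals mark matches, on either strand, to the 5 short motifs named after the sequences.
Kcmf1, chr6:72899930-72900229, minus strand: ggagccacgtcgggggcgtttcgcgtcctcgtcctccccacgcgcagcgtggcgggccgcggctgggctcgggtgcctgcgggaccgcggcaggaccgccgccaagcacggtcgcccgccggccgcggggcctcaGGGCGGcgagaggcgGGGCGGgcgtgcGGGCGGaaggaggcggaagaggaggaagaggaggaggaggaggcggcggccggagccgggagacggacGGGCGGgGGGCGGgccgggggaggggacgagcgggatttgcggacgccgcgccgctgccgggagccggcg
Zrsr1, chr11:22971755-22972054, plus strand: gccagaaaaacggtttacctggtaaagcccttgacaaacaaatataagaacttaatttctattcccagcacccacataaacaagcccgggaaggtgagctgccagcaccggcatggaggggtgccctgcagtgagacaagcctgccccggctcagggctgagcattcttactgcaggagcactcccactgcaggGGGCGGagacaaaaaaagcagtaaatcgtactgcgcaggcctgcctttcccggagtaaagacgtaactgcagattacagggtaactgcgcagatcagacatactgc
Commd1, chr11:22972817-22973116, minus strand: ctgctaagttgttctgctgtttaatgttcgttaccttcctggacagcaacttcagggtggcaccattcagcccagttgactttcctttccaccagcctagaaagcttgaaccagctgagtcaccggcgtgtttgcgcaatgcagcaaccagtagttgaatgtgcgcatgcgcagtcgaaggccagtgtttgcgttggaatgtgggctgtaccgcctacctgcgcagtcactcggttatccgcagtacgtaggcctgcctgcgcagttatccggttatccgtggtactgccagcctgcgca
Secisbp2, chr13:51651458-51651757, plus strand: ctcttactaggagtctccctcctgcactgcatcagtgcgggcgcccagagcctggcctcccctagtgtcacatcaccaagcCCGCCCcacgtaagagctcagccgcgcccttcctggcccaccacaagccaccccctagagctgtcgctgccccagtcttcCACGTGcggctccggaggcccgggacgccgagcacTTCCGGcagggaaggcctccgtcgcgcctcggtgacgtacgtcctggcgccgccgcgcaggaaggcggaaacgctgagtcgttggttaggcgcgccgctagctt
The Kcmf1 and Zrsr1 windows lie wholly inside the called peaks, the Commd1 window shares 284 of its 300 bases with the same peak as Zrsr1, and the Secisbp2 window shares 251. GC content was 81% at Kcmf1, 53.0% at Zrsr1, 54.7% at this Commd1 start and 68.3% at Secisbp2, against a median of 52.7% over 32851 promoters. The GC box (GGGCGG) was found 5 times at Kcmf1 and once each at Zrsr1 and Secisbp2, and 35.7% of all promoters hold it. No motif of the 5 occurs at the Commd1 start, where the run is in lower case throughout. Secisbp2 also holds the E-box (CACGTG), found in 7.15% of promoters, and the ETS core (TTCCGG, in a separate place), found in 14.9%. The TATA box, spelled TATAAA here and held by 13.6% of promoters, had no match in these 4 windows. Nor had the full cAMP response element TGACGTCA, held by 1.79% of promoters. No match overlapped a match to another motif. Such matches describe letters and not bound sites.

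At Camk2a the called peak (mm10, chr18:60917781-60931609) begins 7526 bp before the annotated start of the gene and ends 6302 bp after it. It also overlaps Arsi, an arylsulfatase gene. It held 11627 and 9200 reads in the mutant libraries, against 16380 and 1455 reads in the WT libraries. Scaled for library size this was 697 and 789 CPM (reads scaled to a common library size) in mutant libraries, against 241 and 159 CPM in WT libraries. Both mutant libraries lay above both WT libraries. The means were 743 ± 65.6 CPM in mutant and 199.8 ± 58.2 CPM in WT libraries (SD, n = 2 each), a 3.72-fold difference, with a fitted log2 fold change of 1.89 ± 0.32 (SE) and an adjusted p of 2.14e-04. The median log2 fold change of all tested peaks was itself 1.09, so the peak lay 0.81 above it. Over peaks counted in all 4 libraries that median was 0.02, and the Camk2a peak stood at 1.99 ± 0.40 (SE), with an adjusted p of 0.9999. The call was kept in 4 of 13 alternatives, which leave out limma voom. It was lost when any 1 of the 4 libraries was left out, with log2 fold changes between 1.09 and 2.28.

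Further into the gene the picture was mixed. The other 11 Camk2a peaks, which reach to the gene's far end, together held 242 and 271 CPM in mutant libraries, against 263 and 201 CPM in WT libraries, so the genotypes overlapped. A further 55 peaks within 200 kb on either side of the gene summed to 671 and 804 CPM in mutant libraries, against 920 and 631 CPM in WT libraries, again overlapping. The widest of the peaks inside the gene, chr18:60940530-60954477, had 101.1 and 141 CPM in mutant libraries, against 152 and 100.5 CPM in WT libraries. Of the 11, 3 had both mutant libraries above both WT libraries, 3 had both below and 5 overlapped, and none was called. In random order 2 against 2 libraries separate with a probability of 0.333, and the share over all accumbens peaks was not counted, so nothing is read from this count. The lower ones began with chr18:60934291-60937675, at 39.8 and 27.3 CPM in mutant libraries, against 45.7 and 58.4 CPM in WT libraries. The next, chr18:60963079-60964355, had 8.57 and 7.98 CPM in mutant libraries, against 10.9 and 13.8 CPM in WT libraries. At chr18:60976769-60977289 the values were 0 and 3.17 CPM in mutant libraries, against 5.88 and 9.48 CPM in WT libraries. The 3 higher ones were narrow and lay toward the far end. The one at chr18:60979189-60979757 had 16.5 and 11.4 CPM in mutant libraries, against 2.93 and 0 CPM in WT libraries. The one after it, at chr18:60982411-60983080, had 13.2 and 10.5 CPM in mutant libraries, against 1.18 and 0 CPM in WT libraries. The last, at chr18:60983891-60984854, had 20.9 and 12.4 CPM in mutant libraries, against 8.71 and 0 CPM in WT libraries. WT 2 had no read at any of these 3 higher peaks, and it had none in 69.6% of all accumbens peaks. Reads from a transgene that carries Camk2a sequence and reads from the native locus cannot be told apart in these counts, and copy number was not tested.

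**Figure D1:**
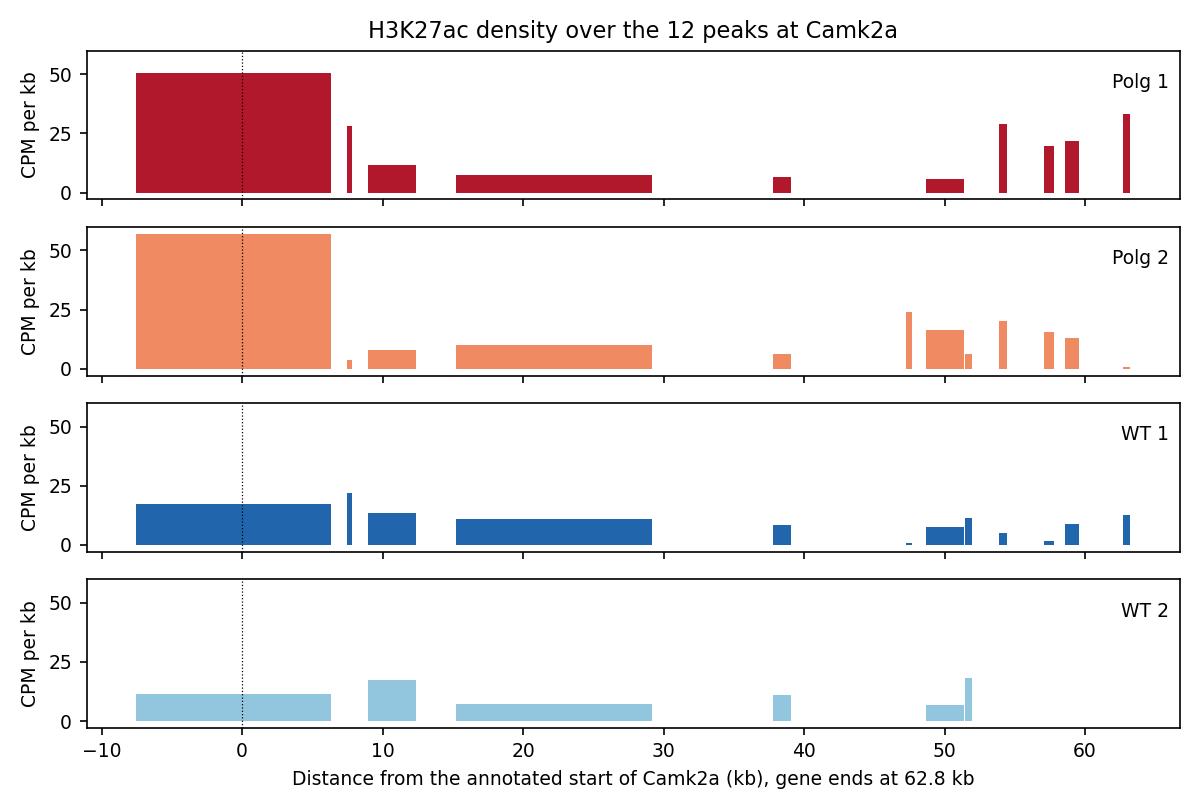
H3K27ac density (CPM per kb of peak) over the 12 peaks at Camk2a, by distance from the annotated gene start in kb, with a row for each library, the 2 mutant libraries (Polg 1 and Polg 2) above the 2 WT libraries. The first peak is taller in both mutant libraries (697 and 789 CPM in all) than in both WT libraries (241 and 159 CPM), while the wide peak inside the gene has 101.1 and 141 CPM in mutant libraries and 152 and 100.5 CPM in WT libraries.

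In the neighbouring and more distant regions the peaks that touch this interval were not called. In caudate putamen (CP) the 2 peaks that touch this interval summed to 339 and 268 CPM in mutant libraries, against 142 and 45.2 CPM in WT libraries. In cortex (COR) a single peak of 21716 bp had 531 and 624 CPM in mutant libraries, against 339 and 169 CPM in WT libraries, with a log2 fold change of 1.19 and an adjusted p of 0.535. In the paraventricular thalamic nucleus (PVT) the 2 peaks summed to 66.5 and 47.9 CPM in mutant libraries, against 71.7 and 68.9 CPM in WT libraries. Neither PVT peak covers the annotated Camk2a start, so this sum is not of the start domain. Most of it came from chr18:60931451-60939207, which lies mostly beyond the accumbens peak. That peak had 57.30 and 42.4 CPM in mutant libraries, against 62.6 and 57.45 CPM in WT libraries. By these values the genotypes did not overlap, with mutant libraries higher in CP and COR and lower in PVT. Peak by peak they overlapped at chr18:60919678-60919928 in CP, with 107 and 25.5 CPM in mutant libraries, against 3.75 and 39.6 CPM in WT libraries. They also overlapped at chr18:60928931-60930539 in PVT, with 9.21 and 5.51 CPM in mutant libraries, against 9.15 and 11.4 CPM in WT libraries. In random order such separation has a probability of 0.333, and its share over all peaks of these regions was not counted. Peaks were drawn separately in each region, so the lengths summed differ, from 3927 bp in CP to 21716 bp in COR.

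Cul2 encodes a scaffold subunit of cullin-RING ubiquitin ligases. Its called peak is a 250 bp interval (chr18:3395149-3395399) with no read in either mutant library, against 485 and 1451 reads in the WT libraries. The WT libraries themselves were far apart, at 7.13 and 158 CPM. With a floor of 3 counts per library the WT mean was at least 378-fold above the mutant mean (adjusted p = 1.81e-12). That bound is for the means and rests mostly on WT 2. It does not hold for WT 1 alone. No peak of CP, COR or PVT touched this interval.

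Kcmf1 encodes a ubiquitin ligase. The peak at its start (chr6:72898893-72900453) held 6 and 7 reads in mutant libraries, against 2625 and 749 reads in WT libraries. That is 0.359 and 0.601 CPM in mutant libraries, against 38.6 and 81.6 CPM in WT libraries, with no overlap. The log2 fold change was -6.96 ± 1.36 (SE), adjusted p = 0.0118. It had the smallest p over peaks counted in all 4 libraries as well, where its adjusted p was 0.844. No CP peak touched this interval, while COR and PVT each had a peak there with reads in both genotypes. COR had 6.75 and 15.7 CPM in mutant libraries, against 1.93 and 29.99 CPM in WT libraries, and PVT had 5.35 and 5.87 CPM in mutant libraries, against 3.40 and 9.89 CPM in WT libraries.

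Zrsr1 is an imprinted gene, expressed from the paternal copy, that lies inside Commd1, a gene of copper handling and NF-kappaB control. The peak over both starts (chr11:22971553-22973100) held 0 and 55 reads in mutant libraries, against 2218 and 1326 reads in WT libraries. In scaled units this was 0 and 4.72 CPM in mutant libraries, against 32.6 and 145 CPM in WT libraries. The log2 fold change was -5.24 ± 1.04 (SE), adjusted p = 0.0261. The call was kept in 3 of 12 alternatives, which leave out limma voom. The overlapping PVT peak had 10.3 and 12.4 CPM in mutant libraries, against 12.7 and 2.48 CPM in WT libraries, and the CP peak had 4.16 and 31.5 CPM in mutant libraries, against 55.9 and 0 CPM in WT libraries, so the genotypes overlapped in both. They also overlapped at the COR peak, with 5.31 and 11.8 CPM in mutant libraries, against 2.20 and 93.3 CPM in WT libraries. Its log2 fold change was -2.48 and was not called.

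Secisbp2 encodes the protein that recruits selenocysteine insertion to selenoprotein messages. Its 495 bp start-site peak (chr13:51651507-51652002) had no read in either mutant library, against 826 and 584 reads in the WT libraries. WT libraries stood at 12.1 and 63.7 CPM. With a floor of 3 counts per library the WT mean, which rests mostly on WT 2, was at least 173-fold above the mutant mean (adjusted p = 0.0414). In PVT the overlapping peak had 10.3 and 2.58 CPM in mutant libraries, against 3.16 and 0.938 CPM in WT libraries. In each of the 4 lower peaks the WT 2 library, the shallowest of the 4, had the highest CPM.

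**Figure D2:**
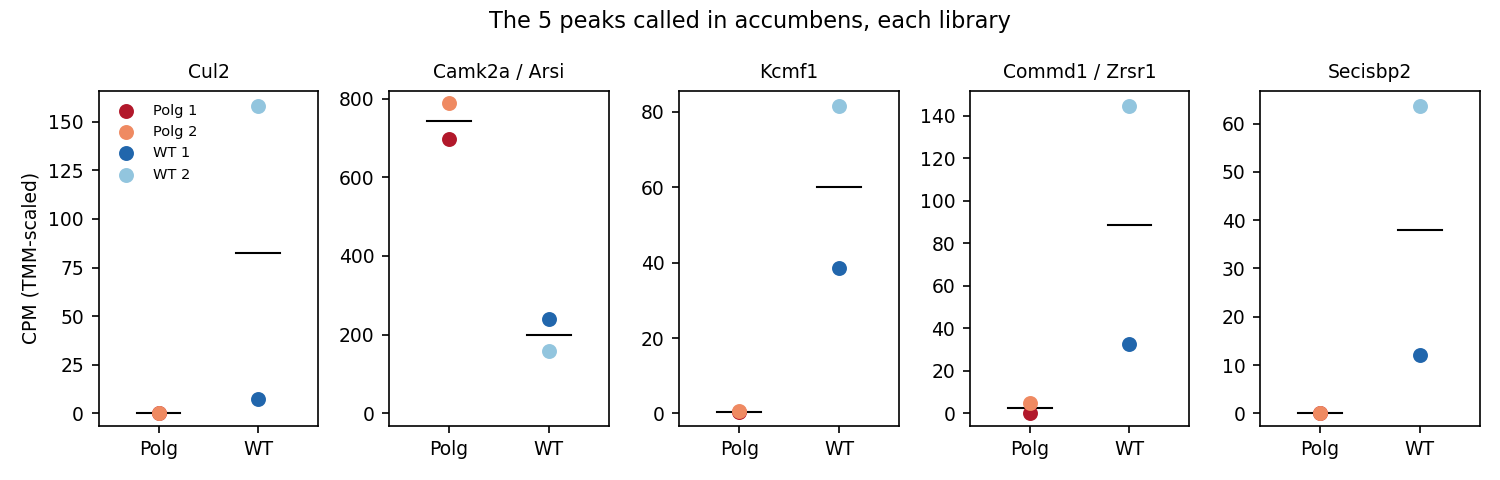
CPM of each library at the 5 called peaks, mutant (Polg) on the left and WT on the right of each panel, with the genotype mean as a bar and 2 libraries each. The Camk2a panel has both mutant libraries (697 and 789 CPM) above both WT libraries (241 and 159 CPM), and the other 4 panels have the mutant libraries at or near 0, with overlapping points, and WT 2 highest.

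Over peaks with a count in all 4 libraries, 3 more of the smallest p had a handful of reads in both mutant libraries, and none passed the adjusted threshold there. Nap1l1, a histone chaperone gene, had 3 and 2 reads in mutant libraries, against 1212 and 386 reads in WT libraries. Glt1d1, a glycosyltransferase gene, had 5 and 12 reads in mutant libraries, against 1038 and 740 reads in WT libraries. Atp2b2, a plasma membrane calcium pump gene, had 4 and 1 reads in mutant libraries, against 782 and 321 reads in WT libraries. The remaining 2 of the 5 smallest p in that set were the Kcmf1 and Camk2a peaks.

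The native Polg gene (chr7:79446231-79467911) carried 3 accumbens peaks, all inside the gene and none called. The first (chr7:79451476-79451851) held 344 and 209 reads in mutant libraries, against 0 and 0 reads in WT libraries. With a floor of 3 counts per library its mutant mean was at least 104-fold above the WT mean, with an adjusted p of 0.998. The second (chr7:79453703-79453953) held 0 and 151 reads in mutant libraries, against 0 and 0 in WT libraries, and was too low to be tested. The third (chr7:79455131-79457107) held 367 and 66 reads in mutant libraries, against 189 and 0 reads in WT libraries. Its scaled values were 21.99 and 5.66 CPM in mutant libraries, against 2.78 and 0 CPM in WT libraries, with a log2 fold change of 3.29 ± 3.64 (SE) and an adjusted p of 0.99999. Summed over the gene, accumbens had 42.6 and 36.5 CPM in mutant libraries, against 2.78 and 0 CPM in WT libraries. Over the same gene CP had 94.9 and 119 CPM in mutant libraries, against 58.9 and 15.9 CPM in WT libraries, and PVT had 29.7 and 33.9 CPM in mutant libraries, against 7.30 and 10.95 CPM in WT libraries. In COR the genotypes overlapped, with 27.9 and 48.4 CPM in mutant libraries, against 15.6 and 53.0 CPM in WT libraries. These sums were chosen after the values were seen and carry no test, and reads of a transgene and of native Polg cannot be told apart here either.

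The 4 libraries differed widely in depth and in how many peaks they covered. Totals were 19660428 and 14838045 reads in mutant libraries, against 80516545 and 6415127 reads in WT libraries. No read fell in 25.2% and 23.3% of peaks in mutant libraries, against 19.9% and 69.6% of peaks in WT libraries. Most of the zeros lay at peaks with many reads elsewhere. Of the 92435 peaks at 0 in WT 2, 95.4% had at least 100 reads in another library, and of the 33391 peaks at 0 in mutant library 1, 99.8% did. The median nonzero count, not scaled for depth, was 126 and 107 reads in mutant libraries, against 379 and 109 reads in WT libraries. WT 2 came near the mutant libraries with the fewest reads in total. Relative to depth, its few covered peaks therefore stood higher than those of the other libraries.

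Coverage followed width. Among peaks of 250 bp, 66.2% and 47.0% had a count in mutant libraries, against 56.6% and 9.82% in WT libraries. Among peaks over 2500 bp, 99.4% and 99.9% had a count in mutant libraries, against 99.98% and 85.5% in WT libraries. Peaks with a count in all 4 libraries made up 1.61% of the 250 bp class and 84.9% of the class over 2500 bp, and 21.4% of all peaks. Their median width was 1568 bp, against 385 bp for peaks at 0 in at least 1 library. They took 47.5% and 46.8% of the reads in mutant libraries, against 60.2% and 78.8% in WT libraries.

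**Figure D3:**
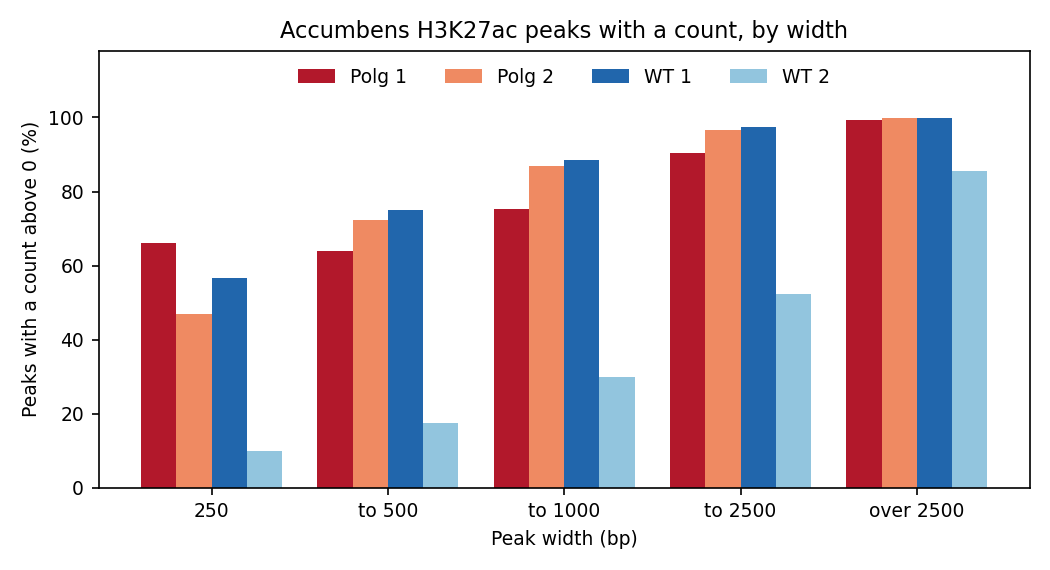
Share of accumbens peaks with a count above 0 (%) by peak width in bp, with a bar for each library, mutant libraries (Polg 1, Polg 2) before WT libraries. WT 2 covered 9.82% of the 250 bp peaks and 85.5% of those over 2500 bp, and the other 3 libraries covered 47.0% to 66.2% of the narrowest class.

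Across all peaks the mutant libraries correlated less with each other than with WT libraries. The Spearman correlation across all peaks, which are not independent and share library depth, was 0.081 between the mutant libraries and 0.504 between the WT libraries, against 0.228 to 0.387 between libraries of different genotype. Over peaks with a count in all 4 libraries it was 0.487 within mutant and 0.439 within WT libraries, against 0.293 to 0.626 between genotypes. The pairs of WT 2 with a mutant library were the lowest there, at 0.293 and 0.297. A total of 7825 peaks (5.89%) had reads in both mutant libraries and neither WT library, and 2040 (1.54%) had reads in both WT libraries and neither mutant library. Mutant libraries 1 and 2 shared 74074 peaks, which is 74.6% of the first list and 72.7% of the second, and WT 1 and WT 2 shared 38477, which is 36.2% and 95.5% of theirs. No library of the 4 was a copy of another. In PVT, where 69.7% of peaks had a count in all 4 libraries, the correlation was 0.629 within mutant and 0.728 within WT libraries, against 0.564 to 0.576 between genotypes.

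The spread of log2 fold changes changed with the peak set. Over all tested peaks the median was 1.09 and 70.4% of values lay above 0, with 54197 peaks above 1 and 15532 below -1. Over peaks with a count in all 4 libraries the median was 0.02 and 50.8% lay above 0, with 4716 peaks above 1 and 4996 below -1. The biological coefficient of variation was 1.83 over all tested peaks and 0.766 over peaks counted in every library. The median over tested peaks was 0.34 without mutant library 1, 0.28 without mutant library 2, 8.62 without WT 1 and 0.44 without WT 2, with 54.9%, 53.3%, 83.2% and 57.5% of values above 0 in that order. The cause of the excess of positive values was not tested.

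**Figure D4:**
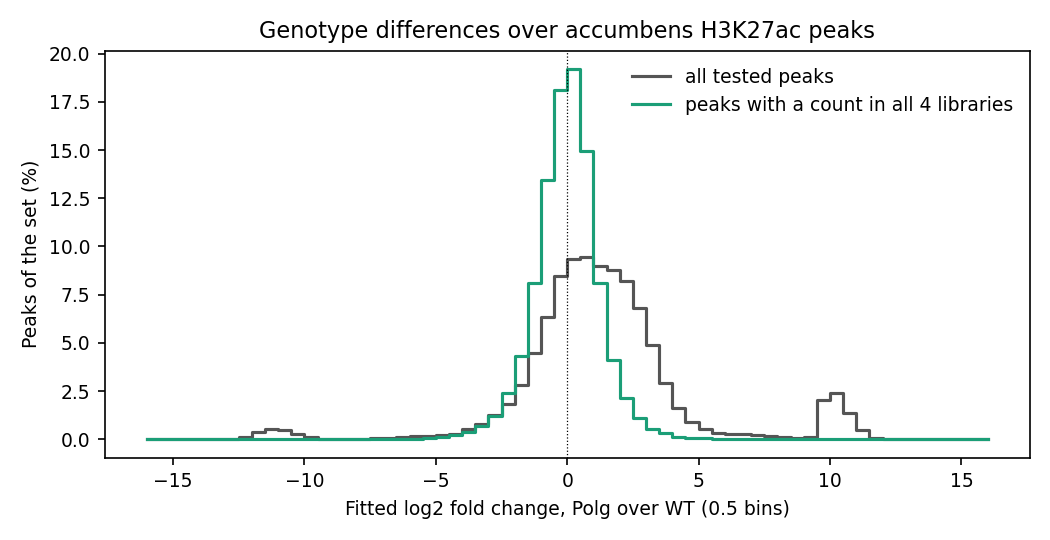
Distribution of fitted log2 fold changes, mutant (Polg) over WT, in bins of 0.5, as the percent of peaks in each set, for all 105058 tested peaks and for the 28365 peaks with a count in all 4 libraries. The first set is centred on 1.09 with side groups near 10 and -11 mostly from peaks at 0 in a whole genotype, and the second is centred on 0.02.

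By position, 10974 peaks lay within 1000 bp of the start site of a protein-coding gene, or of either end where no start site was annotated (gene-end peaks), 66473 inside genes and 55293 between genes. Gene-end peaks had a count in 86.0% and 88.6% of cases in mutant libraries, against 95.5% and 63.1% in WT libraries. Their share of all reads was 16.7% and 13.4% in mutant libraries, against 22.6% and 23.7% in WT libraries. Both mutant libraries lay below both WT libraries in that share. The median log2 fold change was -0.15 at gene ends, 1.18 inside genes and 1.40 between genes, and 4 of the 5 called peaks were gene-end peaks.

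The densest peak lay between genes, 2265 bp from Tmem125, a transmembrane protein gene (chr4:118547185-118548806). It had 362 and 425 CPM in mutant libraries, against 892 and 452 CPM in WT libraries, with a log2 fold change of -0.77 ± 0.30 (SE) and an adjusted p of 0.998. It was the densest place in the accumbens table at 329 CPM per kb. The Cul2 interval came second at 165 CPM per kb, a mean that rests on WT 2, since the libraries stood at 0 and 0 CPM in mutant and at 7.13 and 158 CPM in WT. The peaks at the ends of Dtwd2, of Armc6 with Sugp2, and of Slc35b1 followed at 123 to 149 CPM per kb, and none of them passed the test.

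Reads were then summed per gene over gene-end peaks, which 10576 genes had, and levels below are CPM of gene-end reads, scaled as in that fit. On the scaling of all peaks the same genes stand lower in mutant relative to WT libraries, and sums over list members are given for differences between libraries and not between lists, since the lengths differ. Of 10102 genes tested, none was called by edgeR (0%), and 124 had an unadjusted p under 0.05. DESeq2 called 257 genes and limma voom with quality weights called 9. The median log2 fold change over tested genes was 0.20, and over the 6293 genes with a count in all 4 libraries it was 0.02, where again none was called (0%), the smallest adjusted p was 0.219 and 173 genes had an unadjusted p under 0.05. Of all tested genes, 5730 (56.7%) had a positive log2 fold change. The lists below are read against these medians and this share, and none of their members was called in either direction by edgeR. In random order 2 against 2 libraries separate with a probability of 0.333. The share of all gene ends that separated was not counted, so nothing is read from a gene or list that separated. The 4 scalings use the same counts, so agreement among them adds no independent evidence. Whether genotypes overlapped depended on the scaling for some genes given below. Pde10a, Tshz1, Gng7, Arc, Camk2b, Bhlhe41, Tef, Atf4 and Cacna1c overlapped on gene-end reads and were lower in both mutant libraries on the scaling of all peaks. Foxp1, Cartpt, Jun, Gabpa and Gapdh were lower in both mutant libraries with plain totals of all peaks. Jun and Tef were lower also with plain totals of gene-end reads.

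Genes of striatal projection neurons were marked in both genotypes, and 21 of 25 had a gene-end peak. Their summed level was 5717 and 7119 CPM in mutant libraries, against 6282 and 4423 CPM in WT libraries, so the genotypes overlapped, although with plain totals of all peaks both mutant libraries were lower. All 21 were tested, 15 with a positive and 6 with a negative log2 fold change, and the median was 0.35. Drd1, the D1 dopamine receptor gene, had 168 and 563 CPM in mutant libraries, against 375 and 198 CPM in WT libraries. Drd2, the D2 receptor gene, had 47.3 and 0 CPM in mutant libraries, against 11.7 and 0 CPM in WT libraries. The peptide precursor genes gave no separation of the groups at Tac1 (substance P), with 215 and 91.3 CPM in mutant libraries, against 144 and 45.9 CPM in WT libraries. At Pdyn (dynorphin) both mutant libraries were above both WT libraries, with 109 and 66.7 CPM in mutant libraries, against 30.03 and 0 CPM in WT libraries, a log2 fold change of 2.54 ± 2.65 (SE). Penk (enkephalin) had 84.6 and 276 CPM in mutant libraries, against 100.3 and 0 CPM in WT libraries.

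The list also holds signalling genes of these neurons. Ppp1r1b, which encodes DARPP-32, the phosphatase inhibitor that integrates dopamine and cAMP signals, had 804 and 604 CPM in mutant libraries, against 525 and 935 CPM in WT libraries. Pde1b, a calcium-dependent phosphodiesterase gene, had 757 and 1333 CPM in mutant libraries, against 885 and 494 CPM in WT libraries. Pde10a, the striatal phosphodiesterase gene, had 386 and 475 CPM in mutant libraries, against 460.0 and 563 CPM in WT libraries, a log2 fold change of -0.25 ± 0.43 (SE). On gene-end reads the genotypes overlapped at all 3. Among transcription factors, Foxp1 had 518 and 809 CPM in mutant libraries, against 732 and 404 CPM in WT libraries, and Meis2 had 305 and 757 CPM in mutant libraries, against 409 and 450.3 CPM in WT libraries, with overlap in each.

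Of 15 genes enriched in the accumbens, 11 had a gene-end peak, with 949 and 583 CPM in all in mutant libraries, against 865 and 586 CPM in WT libraries. The median was 0.55 over the 11 tested and -0.38 over the 4 with a count in all 4 libraries. Only 4 of the 11 had a read in WT 2. Npy1r, a neuropeptide Y receptor gene, had 197 and 205 CPM in mutant libraries, against 115 and 0 CPM in WT libraries, so both mutant libraries were higher. Tshz1, a striatal zinc finger gene, had 145 and 12.8 CPM in mutant libraries, against 122 and 334 CPM in WT libraries, with overlapping genotypes, a log2 fold change of -1.52 ± 1.23 (SE) and an adjusted p of 0.9998. Cartpt, the CART peptide gene, had 105 and 53.0 CPM in mutant libraries, against 99.4 and 89.2 CPM in WT libraries, and the genotypes overlapped. Stard5, a lipid transfer protein gene, had 104 and 78.0 CPM in mutant libraries, against 112 and 156 CPM in WT libraries, so both mutant libraries were lower, as they were under each of 4 scalings.

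General neuronal genes were covered in full, 15 of 15, and summed to 2719.6 and 2471 CPM in mutant libraries, against 2323 and 1934 CPM in WT libraries. Both mutant libraries were the higher ones on this scale, while on the scaling of all peaks the genotypes overlapped, with 585 and 432 CPM in mutant libraries, against 652 and 413 CPM in WT libraries, and with plain totals of all peaks both mutant libraries were lower. Snap25, a synaptic fusion gene, had 763 and 498 CPM in mutant libraries, against 435 and 237 CPM in WT libraries, and overlapped on the scaling of all peaks. Nefl, the neurofilament light chain gene, had 176 and 234 CPM in mutant libraries, against 247 and 278 CPM in WT libraries, and both mutant libraries were lower under each of 4 scalings. Of the 14 general neuronal genes tested, 7 had a positive and 7 a negative log2 fold change. Markers of other cells seldom had a gene-end peak. Astrocyte markers had 4 of 12 members with a gene-end peak and 140.0 and 405 CPM in mutant libraries, against 167 and 136 CPM in WT libraries. The oligodendrocyte lineage had 4 of 13, with 238 and 259 CPM in mutant libraries, against 149 and 106 CPM in WT libraries, and both mutant libraries were higher under each of 4 scalings. Microglial markers had none of 10 and vascular markers 2 of 10, with 119 and 61.8 CPM in mutant libraries, against 67.1 and 121 CPM in WT libraries.

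Within the oligodendrocyte list the members did not move together. Mbp, the myelin basic protein gene, had 5.29 and 23.1 CPM in mutant libraries, against 113 and 106 CPM in WT libraries, a log2 fold change of -2.95 that was not called. Sox10 had 161 and 24.5 CPM in mutant libraries, against 1.73 and 0 CPM in WT libraries. Markers of glutamatergic projection neurons, which the accumbens lacks as a resident type, had 5 of 13 members with a gene-end peak and summed to 419 and 145 CPM in mutant libraries, against 46.4 and 285 CPM in WT libraries. Rorb, a cortical transcription factor gene, had 112 and 41.7 CPM in mutant libraries, against 7.97 and 2.04 CPM in WT libraries. Cux2, a gene of upper-layer cortical neurons, had 89.6 and 74.6 CPM in mutant libraries, against 17.3 and 280.0 CPM in WT libraries, so the genotypes overlapped. Interneuron markers had 3 of 13 and 116 and 132 CPM in mutant libraries, against 57.1 and 233 CPM in WT libraries. The part of other cell types in the called peaks was not tested.

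**Figure D5:**
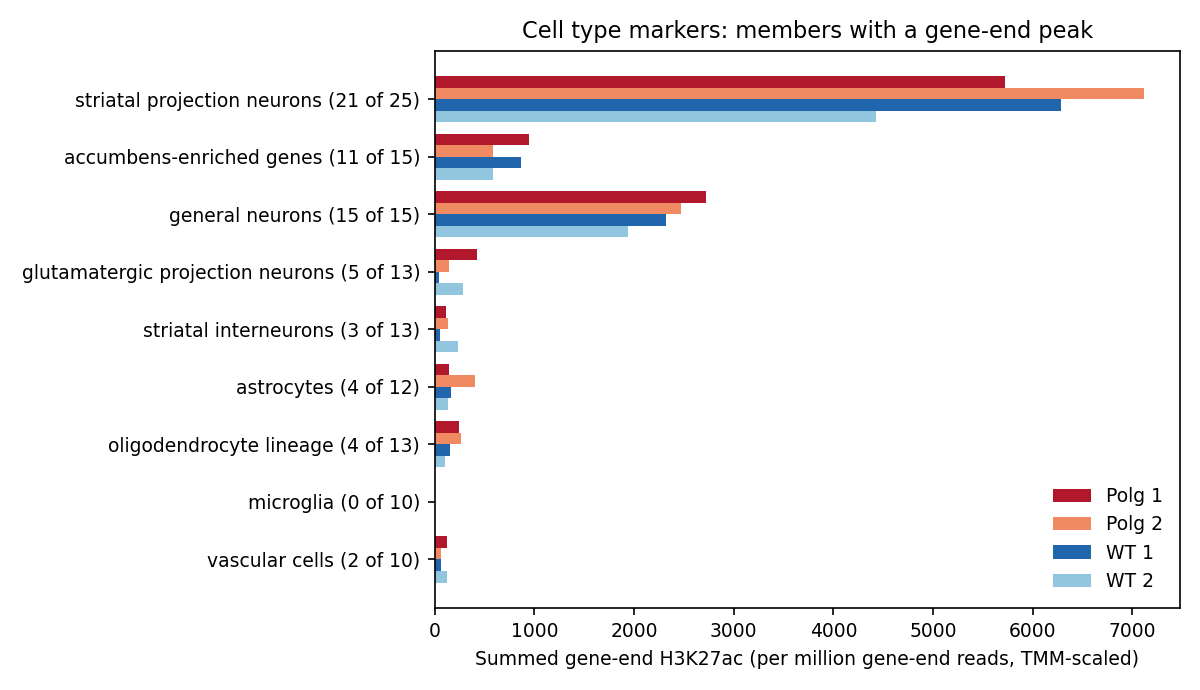
Summed gene-end H3K27ac (TMM-scaled CPM of gene-end reads) of 9 cell type marker lists in each library, mutant libraries (Polg 1, Polg 2) above WT libraries, with the number of list members that had a gene-end peak in brackets. Striatal projection neuron genes reach 5717 and 7119 CPM in mutant libraries and 6282 and 4423 CPM in WT libraries, and microglial genes have no gene-end peak. Lists differ in peak length, so bars compare libraries within a list.

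The dopamine and cAMP signalling list had 19 of 24 members tested, 10 with a positive and 9 with a negative value, and a median of 0.12. Gng7, a G protein subunit gene of striatal receptors, had 409 and 768 CPM in mutant libraries, against 623 and 661 CPM in WT libraries, and the genotypes overlapped. Calcium/calmodulin kinases and plasticity genes had 15 of 19 tested, 8 positive and 7 negative, and a median of 0.39. Summed over the list both mutant libraries were higher, at 5601 and 7689.8 CPM in mutant libraries, against 3431 and 2762 CPM in WT libraries, of which Camk2a itself gave 3311 and 4516 CPM in mutant libraries, against 880.4 and 742 CPM in WT libraries. The difference in this sum is therefore not read as one of the list as a whole. Camk2b, the beta subunit gene, had 243 and 415 CPM in mutant libraries, against 345 and 407 CPM in WT libraries. Gria2, an AMPA receptor subunit gene, had 499.7 and 582 CPM in mutant libraries, against 264 and 214 CPM in WT libraries, a log2 fold change of 1.18 that was not called.

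Activity-regulated genes had 15 of 22 tested, 7 positive and 8 negative, and a median of -0.02. Arc, an activity-induced synaptic gene, had 433 and 637 CPM in mutant libraries, against 542 and 565 CPM in WT libraries. Egr3 had 345 and 362 CPM in mutant libraries, against 431 and 155 CPM in WT libraries, and Jun had 391 and 369.5 CPM in mutant libraries, against 419 and 351 CPM in WT libraries. The genotypes overlapped at all 3. Clock genes had 18 of 19 tested, 7 positive and 11 negative, and a median of -0.13. Summed over the list both mutant libraries were lower, under each of 4 scalings, at 3144 and 3282 CPM in mutant libraries, against 3590 and 3571 CPM in WT libraries. Per1, a negative limb gene of the clock, had 242 and 545 CPM in mutant libraries, against 558 and 637 CPM in WT libraries, so both mutant libraries were lower, with a log2 fold change of -0.60 that was not called. At the other most acetylated members, Bhlhe41 and Tef, the genotypes overlapped on gene-end reads. Bhlhe41 had 394 and 332 CPM in mutant libraries, against 335 and 559 CPM in WT libraries. Tef had 236 and 317 CPM in mutant libraries, against 358 and 291 CPM in WT libraries.

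Genes that maintain and transcribe mitochondrial DNA, the process that Polg serves, had 17 of 24 tested, 10 positive and 7 negative. Their median was 0.61 over those tested and 0.47 over the 6 with a count in all 4 libraries, and only 9 of the 17 had a read in WT 2. Mterf3, a mitochondrial transcription regulator gene, had 335 and 116 CPM in mutant libraries, against 169 and 9.69 CPM in WT libraries. Slc25a4, the adenine nucleotide carrier gene, had 207 and 210.0 CPM in mutant libraries, against 232 and 309 CPM in WT libraries, so both mutant libraries were lower.

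Nuclear genes of oxidative phosphorylation had 30 of 48 tested, 18 positive and 12 negative, with a median of 0.10. Uqcrq, a complex III gene, had 356 and 274 CPM in mutant libraries, against 227 and 280.0 CPM in WT libraries. Stress response genes had 15 of 24 tested, 6 positive and 9 negative, with a median of -0.11. Atf4, the transcription factor of the integrated stress response, had 211 and 217 CPM in mutant libraries, against 169 and 407 CPM in WT libraries, and the genotypes overlapped. Mitophagy, fission and fusion genes had 15 of 18 tested, 8 positive and 7 negative, with a median of 0.03. Sqstm1, the autophagy receptor gene, had 55.7 and 61.8 CPM in mutant libraries, against 161 and 608 CPM in WT libraries, a log2 fold change of -2.71 with an adjusted p of 0.9998.

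Genes associated with bipolar disorder had 21 of 27 tested, 8 positive and 13 negative, and a median of -0.15. Cacna1c, a calcium channel gene, had 265 and 362 CPM in mutant libraries, against 265 and 386 CPM in WT libraries, with overlapping genotypes and a log2 fold change of -0.05. Ntrk2, the BDNF receptor gene, had 366 and 236 CPM in mutant libraries, against 310.4 and 0 CPM in WT libraries. Housekeeping promoters, a set outside these themes, had 13 of 15 tested, 8 positive and 5 negative, and a median of 0.07, with Gapdh at 237 and 422 CPM in mutant libraries, against 316 and 327 CPM in WT libraries. Summed over this list the genotypes overlapped on gene-end reads. On the scaling of all peaks both mutant libraries were lower, at 310 and 306 CPM, against 486 and 329 CPM in WT libraries. With plain totals of either kind they were lower too, so lower sums were not particular to the clock list.

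Whether the genotype difference in accumbens differed from that in CP was tested over peaks placed alike in both. Of the accumbens peaks, 31077 (23.4%) overlapped a CP peak, and 7948 matched a single CP peak by at least 50% of both lengths. None was called by edgeR (0%), with 294 at an unadjusted p under 0.05, a median difference of -0.24 and a smallest adjusted p of 0.9999, while DESeq2 called 314 and limma voom 9. The 5 of smallest p were at Igsf3, at Ctnnd2, and near Slc37a3, Cdh11 and Cd83. In each of them at least 1 genotype of a region had 2 libraries at 0 or near 0. At Ctnnd2, a synaptic catenin gene, accumbens had 0 and 0 reads in mutant libraries, against 663 and 308 reads in WT libraries, and CP had 103 and 2266 reads in mutant libraries, against 0 and 0 reads in WT libraries. Igsf3, an immunoglobulin-family gene, had 353 and 365 reads in mutant accumbens libraries, against 2846 and 377 reads in WT accumbens libraries. CP had 753 and 256 reads there in mutant libraries, against 0 and 0 reads in WT libraries. Without WT 1 of CP, 621 of these peaks were called, and leaving out any of the other libraries called none. Taken alone, CP, COR and PVT had no called peak by edgeR (0% each), with 5323, 11486 and 9835 peaks at an unadjusted p under 0.05.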

How the data were processed

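H3K27ac was measured by chromatin immunoprecipitation sequencing in 4 accumbens libraries, 2 per genotype. The deposited tables hold raw read counts per peak, as whole numbers with differing totals, with 1 merged peak set per region, per the file headers. Tools listed in the submitters' processing notes are featureCounts, Subread, HOMER, STAR and DESeq2, without roles, on mm10. The sources used here state neither duplicate removal nor a peak threshold, and the input library was not used. Reads carry no molecular identifiers, so intervals would cover counting error only.

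Peaks were placed with RefSeq tables of GRCm38.p6. For 17492 of 21887 protein-coding genes a start site was known, and either end was used for the other 4395. No exon table was used, so exonic and intronic positions are not given. The test was edgeR 4.0.16 quasi-likelihood (R 4.3.3) with TMM scaling, edgeR's low-count filter, robust dispersion and Benjamini-Hochberg adjustment, 2-sided, with 2 residual degrees of freedom. The scripts were tested on simulated counts that scattered far less than these libraries and had no added empty peaks. That checks the code and does not show how the test behaves on these data. CPM are TMM-scaled, over all peaks for peaks and over gene ends for genes. Standard errors (SE) are the log2 fold change divided by the square root of the F statistic. An exact permutation test of 2 against 2 cannot go below 0.333 and was not used.

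Members and gene lists were chosen with earlier results of these data known. Named were peaks past the threshold, the 5 of smallest p over peaks with a count in all 4 libraries, peaks at Polg, the 5 of highest CPM per kb, the 3 most acetylated members of each list and any striatal or accumbens list member. 1 list member is counted in its list and is not reported singly here. Peaks at Camk2a beyond the called one, and loci compared across regions, were chosen after their values were seen. Alternatives were DESeq2 1.42.0, limma 3.58.1 voom, other scalings and filters, thinning, a replicate block, and leaving out each library.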

Additional observations from a re-analysis of the deposited data

How the results depend on the processing

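The count of 5 called peaks depended on the processing. It was 343 with DESeq2 size factors (1 higher, 342 lower), 80 with total counts only (1 higher, 79 lower), 29 with no filter, 2143 with the DESeq2 test (169 higher, 1974 lower) and 40 with limma voom. It was 0 over peaks with a count in every library, 0 after thinning to the smallest library and, in an alternative added after seeing the data, 0 without robust dispersion. Leaving out 1 library gave 0 to 201, with 13 without mutant library 1, 201 without mutant library 2, 0 without WT 1 and 0 without WT 2. The median log2 fold change of all peaks was 1.09 with TMM, 1.03 with total counts and 0.47 with DESeq2 size factors, and the Camk2a peak lay 0.81, 0.58 and 0.63 above it. Without WT 1 that median was 8.62, and the Camk2a peak, at 2.28, lay below it. Over 12 or 13 alternatives each, the log2 fold changes of the 5 called peaks kept their sign. Their calls were kept in 8 (Cul2), 6 (Kcmf1), 6 (Secisbp2), 4 (Camk2a) and 3 (Commd1) of them. These alternatives leave out limma voom, whose 40 called peaks included only 1 of the 5. For Cul2, Secisbp2 and Commd1 they also leave out the set with a count in every library, where these peaks could not be tested. For gene ends the count of 0 became 257 with the DESeq2 test and 9 with voom, and was 0 in every fit that left out a library. For the comparison with CP it became 314 with the DESeq2 test and 9 with voom, and leaving out 1 library gave 0 to 621. Causes were not tested.

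Replicate numbers in the labels are shared by both genotypes. Deviations of same-numbered libraries were not correlated (r = -0.04 over 105058 tested peaks, 2 pairs). With only 2 pairs this cannot show whether such libraries share a batch or preparation. With a replicate block 2 peaks were called, 0 gene ends and 0 peaks in the comparison with CP. The depth and empty peaks of WT 2, with 6415127 reads, limit every comparison.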

Other observations

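On the X chromosome, 4296 peaks took 2.78% and 2.62% of reads in mutant libraries, against 2.25% and 1.59% in WT libraries. With these peaks left out the same 5 peaks were called. Only 3 peaks lay on the Y chromosome, with under 0.01% of reads in each library.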
